A study of Homo sapiens with 10 samples.

Results

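Apilimod, an inhibitor of the lipid kinase PIKfyve, was compared directly with Torin-1, an inhibitor of the mTOR kinase, in QGP-1 cells, a long-established human line from a neuroendocrine tumor of the pancreas. The comparison used 4 of the 10 RNA-seq samples of the series: 2 samples treated with 1 µM apilimod and 2 treated with 100 nM Torin-1, each for 24 h by the sample labels. The study's text gives a shorter treatment, and the labels describe removal of ribosomal RNA where the study's methods describe oligo(dT) selection. The 2 DMSO (vehicle) samples of the same table did not enter the comparison and are shown to say which drug moved a gene. All 6 samples are labelled wild type, and all come from a single cell line. The remaining 4 samples belong to a PIKFYVE knockdown that was normalized separately and was not used here. Of 35606 genes in the table, the 13520 with a mean of at least 1 CPM (the share of a library taken by a gene on the usual per-million scale, as scaled by the authors) over the 6 samples were tested.

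PIKfyve makes the lipid PI(3,5)P2 on late endosomes and lysosomes, where it is needed for membrane fission, ion flux and the export of lysosomal contents. mTOR is the kinase at the centre of 2 complexes that sit downstream of growth factors and of amino acids sensed at the lysosome, and it promotes translation, lipid synthesis and glycolysis and restrains autophagy. The transcription factors SREBP-1 and SREBP-2, encoded by SREBF1 and SREBF2, are held in the endoplasmic reticulum by INSIG proteins when sterols are abundant and switch on cholesterol and fatty acid synthesis when sterols are scarce. TFEB and its relatives, the MiT/TFE factors, drive lysosomal genes, and FOXO factors drive growth factor receptors and growth-arrest genes when signaling through AKT is low.

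The samples held an estimated 10.4 to 13.6 M reads, at which 3 reads correspond to 0.227 to 0.291 CPM. Replicates differed by more than sampling noise, with a median chi-square of 1.85 to 2.56 times the Poisson expectation. The labels do not say that replicates came from separate cultures, so the p-values measure only the spread between these samples, which may be technical. The neuroendocrine identity of the line was visible in the drug-treated samples: CHGA, which encodes chromogranin A, was at 427 and 453 CPM under Torin-1 and at 430 and 389 CPM under apilimod, and SCG2, which encodes secretogranin II, was at 5468 and 5622 CPM under Torin-1 and at 3289 and 3187 CPM under apilimod. NEUROD1 did not exceed 0.70 CPM and RFX6 and SLC18A2 were listed at 0. Of 18 genes that mark fibroblasts, endothelium, immune cells or exocrine pancreas, 15 were too low to be tested and the list summed to between 8.27 and 21.8 CPM. The highest of them was PRSS1, a trypsinogen gene with close paralogs, at 11.9 and 18.0 CPM under Torin-1, 14.9 and 13.2 CPM under apilimod, and 5.65 and 5.34 CPM under DMSO.

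The sequences below are examples of motif matches in promoters of named genes. They come from the RefSeq promoter windows of GRCh38.p14, which run from 250 bases before to 50 bases after a transcription start, and capitals mark the motif, searched on both strands: TCACNCCAC for SREBP, TCACGTGA for the CLEAR element of the MiT/TFE factors, and GTAAACA for FOXO, which was added after the values were seen.
INSIG1: ccgggcaggcTCACGTGAtgcgggcccc
SREBF2: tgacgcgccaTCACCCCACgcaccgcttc
ALDOC: ggcggggcgcTCACTCCACctcgccgccc
ATP6V0D1: ccccttatggTCACGTGAggcgcttgcg
TXNIP: cgggctcctgGTAAACAaggaccgggc
The stretch of INSIG1 lies at chr7:155297812-155297839 on the forward strand, and its motif begins 56 bases before the RefSeq start and inside an exon of the GENCODE release 29 model. That of SREBF2 lies at chr22:41832962-41832990 on the forward strand, 133 bases before the start and within an exon of the antisense gene SREBF2-AS1. That of ALDOC lies at chr17:28577015-28577043 on the reverse strand, 138 bases before the RefSeq start, and that of ATP6V0D1 at chr16:67481200-67481227 on the reverse strand, 60 bases before the start. Both are in an exon of their gene in GENCODE. That of TXNIP lies at chr1:145996687-145996713 on the reverse strand, 124 bases before the start and outside any GENCODE gene. Matches not shown were the SREBP motif in NBR1 and the CLEAR motif in EIF4B, both genes lower under apilimod, so nothing is read from the examples. Of all 35116 windows, 1.13% held the SREBP motif, 0.98% the CLEAR motif and 3.42% the FOXO motif.

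Direct comparison called 6037 genes, or 44.7% of those tested, at an adjusted p-value under 0.05 (limma on log2(CPM + 1), Benjamini-Hochberg adjustment over all genes tested, as for every adjusted p below). Of these, 3391 (25.1% of genes tested) were higher under apilimod and 2646 (19.6%) were lower, with a median difference over all genes of 0.02 on the log2 scale. This balance depended on the scaling: 2896 were higher and 3193 lower with samples centred on their median, and 2809 and 3046 with quantile normalization. Past the cutoff of 1.5 on the absolute log2 difference there were 123 genes higher under apilimod (0.91%) and 54 lower (0.399%). In this text a difference is log2(CPM + 1) under apilimod minus that under Torin-1, which understates the change of low genes, and a fold is the ratio of mean CPM. Many called differences were small: 1795 of the 3391 higher genes and 1273 of the 2646 lower genes differed by less than 0.5. Of the 7483 genes not called, 4621 had a 95% interval of the difference within 0.5 in either direction, and the others are not resolved at this depth and n.

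The genes higher under apilimod were led by lipid synthesis. The highest differences were those of LSS (lanosterol synthase), SCD (stearoyl-CoA desaturase), INSIG1 and HMGCS1 (HMG-CoA synthase), each more than 20-fold higher under apilimod. The 3 lists of cholesterol synthesis, SREBP regulation and fatty acid synthesis hold 48 tested genes and made up 33 of the 123 genes past the cutoff and 17 of the 26 genes with a difference of at least 3. The other genes among the 12 highest were LIPG (endothelial lipase, difference 4.36), PLA2G3 (a secreted phospholipase, 4.33), DHCR7 (4.16), PRR15 (4.15), FAM220A (3.85), DDIT4 (3.82), ACAT2 (3.75) and IDI1 (3.74). PRR15 was at 0 and 0.35 CPM under Torin-1 and at 21.2 and 18.1 CPM under apilimod.

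**Figure D1:**
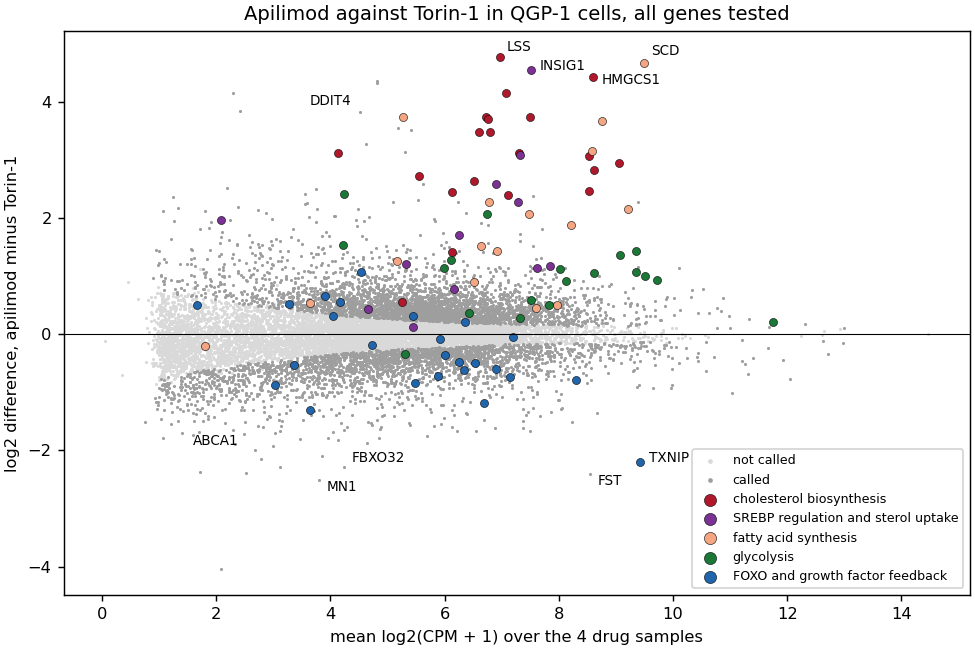
Log2 difference between apilimod and Torin-1 (vertical axis, positive values higher under apilimod) against the mean log2(CPM + 1) of the 4 drug samples (horizontal axis) for all 13520 genes tested, each point a gene. Cholesterol synthesis genes (dark red) lie above 0 throughout, up to LSS at 4.77, whereas TXNIP and most called FOXO and feedback genes (blue) lie below 0.

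Where did the DMSO samples lie? Against DMSO, a contrast that shares the 2 DMSO samples between drugs, apilimod raised 778 genes (5.75%) and lowered 377 (2.79%), and Torin-1 raised 2248 (16.6%) and lowered 2954 (21.8%). Of the 3391 genes higher under apilimod than under Torin-1, 644 were raised by apilimod and 2427 were lowered by Torin-1. Among the 123 past the cutoff, 102 were raised by apilimod, 103 were lowered by Torin-1, and in 99 the DMSO samples lay between the drugs. They lay between in 1367 of the 3391. Of the 2646 genes lower under apilimod, 274 were lowered by apilimod and 1811 were raised by Torin-1. Among the 54 past the cutoff, 22 were lowered by apilimod, 46 were raised by Torin-1, and DMSO lay between the drugs in 33. It lay between in 1209 of the 2646, and in 20.95% of all genes tested.

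Cholesterol synthesis separated the drugs in every gene of the pathway. All 20 genes tested were higher under apilimod, with differences from 0.55 (PMVK) to 4.77 (LSS) and a median of 3.09. In all 20 the DMSO samples lay between the drugs, as in 20.95% of all genes tested. The same held for 40.3% of called genes higher under apilimod and for 80.5% of those past the cutoff. Summed over the list, the samples held 1186 and 1201 CPM under Torin-1, 2609 and 2628 CPM under DMSO, and 11007 and 11202 CPM under apilimod. Apilimod raised 19 of the 20 against DMSO (median difference 1.96) and Torin-1 lowered all 20 (median -1.10), so both drugs contributed to the gap. LSS (ENSG00000160285.15, chromosome 21, 46188141 to 46228824 on the reverse strand), which closes the sterol ring, was at 23.1 and 22.6 CPM under Torin-1, 71.2 and 78.9 CPM under DMSO, and 665 and 638 CPM under apilimod. Its difference was 4.77 (SE 0.068, adjusted p = 5.90e-17), a 28.5-fold higher mean.

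Early and late steps of the pathway both differed. HMGCS1, which makes HMG-CoA, was at 78.9 and 86.2 CPM under Torin-1, 194 and 208 CPM under DMSO, and 1732 and 1861 CPM under apilimod (difference 4.43, SE 0.060, adjusted p = 3.82e-17). The drugs' samples did not overlap, as in 6028 of the 6037 called genes, and DMSO lay between them. DHCR7, the enzyme of a last step to cholesterol, was at 30.7 and 31.1 CPM under Torin-1 and at 585 and 555 CPM under apilimod. Of the steps between, MVD, FDFT1, SQLE and MSMO1 had differences of 3.70, 3.48, 3.13 and 3.47.

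**Figure D2:**
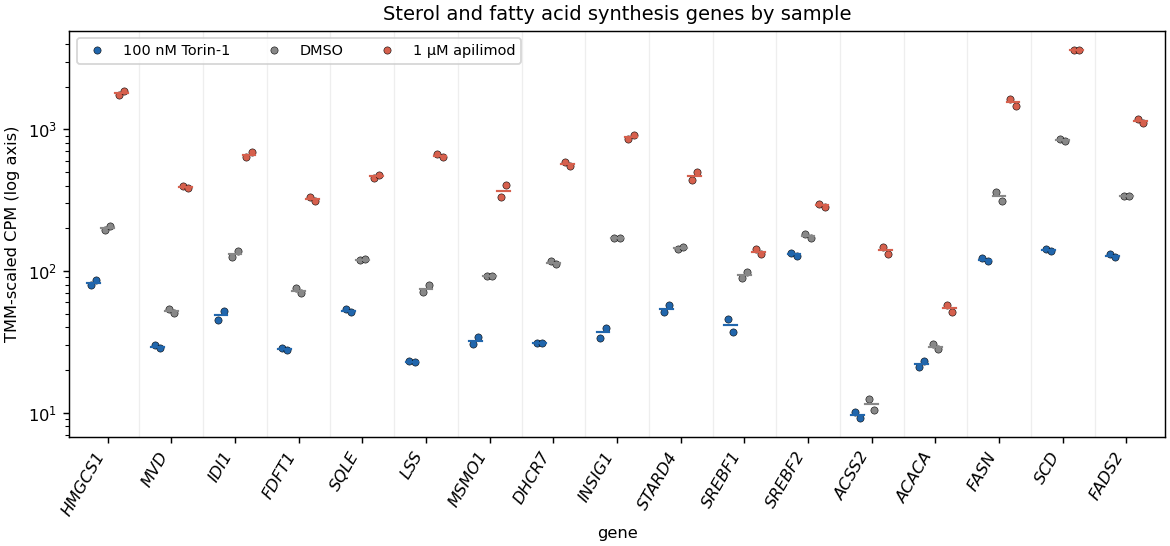
Scaled CPM of 17 sterol and fatty acid genes (log axis) in each of the 6 samples, with a short line at the mean of 2 replicates for Torin-1 (blue), DMSO (grey) and apilimod (red). In each gene shown the apilimod samples lie above DMSO and the Torin-1 samples below it, as in SCD at 144 and 139, 851 and 833, and 3647 and 3627 CPM.

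Regulators of the sterol response were higher under apilimod as well. Of 12 genes of SREBP regulation and sterol uptake, 11 were higher under apilimod (91.7%, against 25.1% of all genes tested). Their list had a median difference of 1.46. INSIG1, which retains SREBP in the endoplasmic reticulum and is itself a target of SREBP, was at 33.8 and 39.8 CPM under Torin-1, 170 and 170 CPM under DMSO, and 850 and 905 CPM under apilimod (difference 4.54, SE 0.076, adjusted p = 3.32e-16). STARD4, a carrier of sterol between membranes, differed by 3.09, and SREBF1 and SREBF2 by 1.71 and 1.14. The lysosomal sterol exporters NPC1 and NPC2 had another pattern. NPC2 was at 25.2 and 25.1 CPM under Torin-1, 21.5 and 23.6 CPM under DMSO, and 60.1 and 59.3 CPM under apilimod, so apilimod alone stood apart. Their differences from DMSO were 1.37 for NPC2 and 0.79 for NPC1 under apilimod, and 0.15 and 0.01, neither called, under Torin-1. SCAP, the escort protein of SREBP, was the gene of the list not called (difference 0.12, 95% interval -0.10 to 0.33).

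Fatty acid synthesis moved with sterol synthesis, in 15 of 16 genes (93.8%, against 25.1% of all genes tested), with a median difference of 1.70. Apilimod raised 13 of the 16 against DMSO and Torin-1 lowered 12 and raised ELOVL5. SCD, which puts the double bond into saturated fatty acids, differed by 4.67 (SE 0.048, adjusted p = 9.38e-19). FASN, the fatty acid synthase, was at 124 and 117 CPM under Torin-1, 361 and 314 CPM under DMSO, and 1638 and 1454 CPM under apilimod (difference 3.67). ACSS2, which makes acetyl-CoA from acetate, was at 10.1 and 9.14 CPM under Torin-1, 12.4 and 10.5 CPM under DMSO, and 148 and 133 CPM under apilimod (difference 3.74, adjusted p = 1.37e-13). Its gap came with apilimod: it rose by 3.51 against DMSO, and its difference under Torin-1 was -0.23 and not called. ACACA, the acetyl-CoA carboxylase of the cytosol, differed by 1.26 and ACLY, the citrate lyase, by 2.16. ACACB, its mitochondrial relative, at 1.27 to 3.70 CPM in the drug samples, was not called (-0.20, 95% interval -0.85 to 0.44).

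The sterol exporters ABCA1 and ABCG1 were lower under apilimod. ABCA1, which exports cholesterol from the cell and is a target of the sterol receptor LXR, was at 8.76 and 9.49 CPM under Torin-1, 6.25 and 5.31 CPM under DMSO, and 2.04 and 2.12 CPM under apilimod (difference -1.72, SE 0.197, adjusted p = 4.49e-06). ABCG1, another sterol exporter, was at 15.0 and 14.6 CPM under Torin-1 and at 6.89 and 5.32 CPM under apilimod (difference -1.16). In both the drugs' samples did not overlap, as in 6028 of the 6037 called genes, and apilimod fell below DMSO. Of the 9 LXR and efflux genes tested, these 2 were lower under apilimod, LPCAT3, a phospholipid acyltransferase, was higher (1.12), and 6 were not called (median of the list -0.21). A count of 2 in 9 is near the 19.6% of all genes tested that were lower, so no direction of the list is read from it.

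Promoter windows were described for lists in which at least 80% of genes had one. The SREBP motif was found in 1 of 10 genes of SREBP regulation (SREBF2, shown above), 1 of 15 of fatty acid synthesis and 1 of 18 of glycolysis (ALDOC, shown above), and in 1.98% of the called genes higher under apilimod that had a window, against 1.47% of all tested genes that had one. The CLEAR motif was found in 1 of the 10 genes of SREBP regulation (INSIG1, shown above) and in 2.81% of the called higher genes, against 2.23% of tested genes with a window. The share over tested genes rests on windows for 77.5% of them, so these shares are given side by side and nothing is read from them. For cholesterol synthesis, the lysosome, the V-ATPase and the called lower genes under 80% had a window, so the motif check is void there. A match describes letters in the window, and its absence says nothing about the factor.

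More genes of the lysosome were higher than lower under apilimod. Of 39 genes of lysosomal hydrolases and membrane proteins, 17 were higher (43.6%, against 25.1% of all genes tested). The 7 that were lower made up 17.9%, near the 19.6% of all genes tested, and the median difference was 0.16. Against DMSO apilimod raised 18 and Torin-1 raised 12 of the 39, and in 14 the DMSO samples lay below both drugs, as in 7.41% of all genes tested. Without the filter on low values the 17 became 9. CTSD, which encodes cathepsin D, had DMSO below both drugs, at 134 and 123 CPM under DMSO, 172 and 162 CPM under Torin-1 and 172 and 160 CPM under apilimod (difference -0.01, 95% interval -0.15 to 0.13). LIPA, the acid lipase that frees cholesterol from LDL esters, was at 118 and 129 CPM under Torin-1, 146 and 152 CPM under DMSO, and 248 and 278 CPM under apilimod (difference 1.08, adjusted p = 1.02e-08). GM2A, the activator of ganglioside breakdown, differed by 1.01. CTSB, which encodes cathepsin B, was lower under apilimod (-0.66), at 24.3 and 24.3 CPM against 36.9 and 40.8 CPM under Torin-1. NEU1, a sialidase, had the highest difference of the list (1.92), at 6.55 and 5.27 CPM under Torin-1, 1.04 and 2.91 CPM under DMSO, and 26.3 and 23.9 CPM under apilimod. It lies in the MHC region, which has alternate copies in the assembly, and its value is therefore uncertain.

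The proton pump and the MiT/TFE genes leaned to apilimod. Of 19 subunits of the V-ATPase, which acidifies the lysosome, 13 were higher under apilimod (68.4%, against 25.1% of all genes tested). The other 6 were not called, the median difference was 0.34, and without the filter on low values 8 were higher. ATP6V0D1 was at 75.5 and 67.6 CPM under Torin-1, 97.6 and 104 CPM under DMSO, and 164 and 154 CPM under apilimod (difference 1.14, adjusted p = 1.23e-08), and ATP6V0E1 and ATP6V1E1 differed by 1.05 and 0.54. Of 11 MiT/TFE factors and targets, 7 were higher (63.6%, against 25.1%), or 4 without the filter. MITF was the 1 lower gene (9.09%, against 19.6%) at -0.63, and the median was 0.61. FLCN, which encodes folliculin, a part of the machinery that signals nutrients to the MiT/TFE factors, was at 29.4 and 26.0 CPM under Torin-1, 28.9 and 27.2 CPM under DMSO, and 71.9 and 69.7 CPM under apilimod (difference 1.32, adjusted p = 3.03e-08). RRAGC, a Rag GTPase of the same machinery, was at 24 and 26.5 CPM under Torin-1, 29.5 and 29.6 CPM under DMSO, and 60.2 and 68.0 CPM under apilimod (difference 1.31). In both genes the Torin-1 samples were near those of DMSO and were not called against them, and apilimod stood apart. PPARGC1A, the coactivator PGC-1α, was above DMSO under both drugs and higher under apilimod (0.89).

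Of 38 autophagy genes tested, 13 were lower under apilimod (34.2%, against 19.6% of all genes tested) and 10 were higher (26.3%, against 25.1%), with a median of -0.01, and Torin-1 raised 17 of them and apilimod 8 against DMSO. ULK1, the initiating kinase, was at 63.8 and 56.8 CPM under Torin-1, 32.8 and 32.7 CPM under DMSO, and 24.7 and 23.0 CPM under apilimod (difference -1.30, adjusted p = 6.90e-08), and its partners ATG13 and RB1CC1 differed by -0.75 and -0.65. ATG14, a subunit of the lipid kinase complex of autophagy, differed by -0.79. The cargo receptors did not move together: NBR1 was lower under apilimod, at 113 and 125 CPM against 292 and 288 CPM under Torin-1 (difference -1.27), whereas SQSTM1, which encodes p62, was higher, at 376 and 355 against 295 and 290 CPM (difference 0.32, adjusted p = 2.76e-04). SQSTM1 was above DMSO, at 241 and 235 CPM, under both drugs. WIPI1, a phosphoinositide-binding protein of the autophagosome, was the highest of the list at 0.72.

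**Figure D3:**
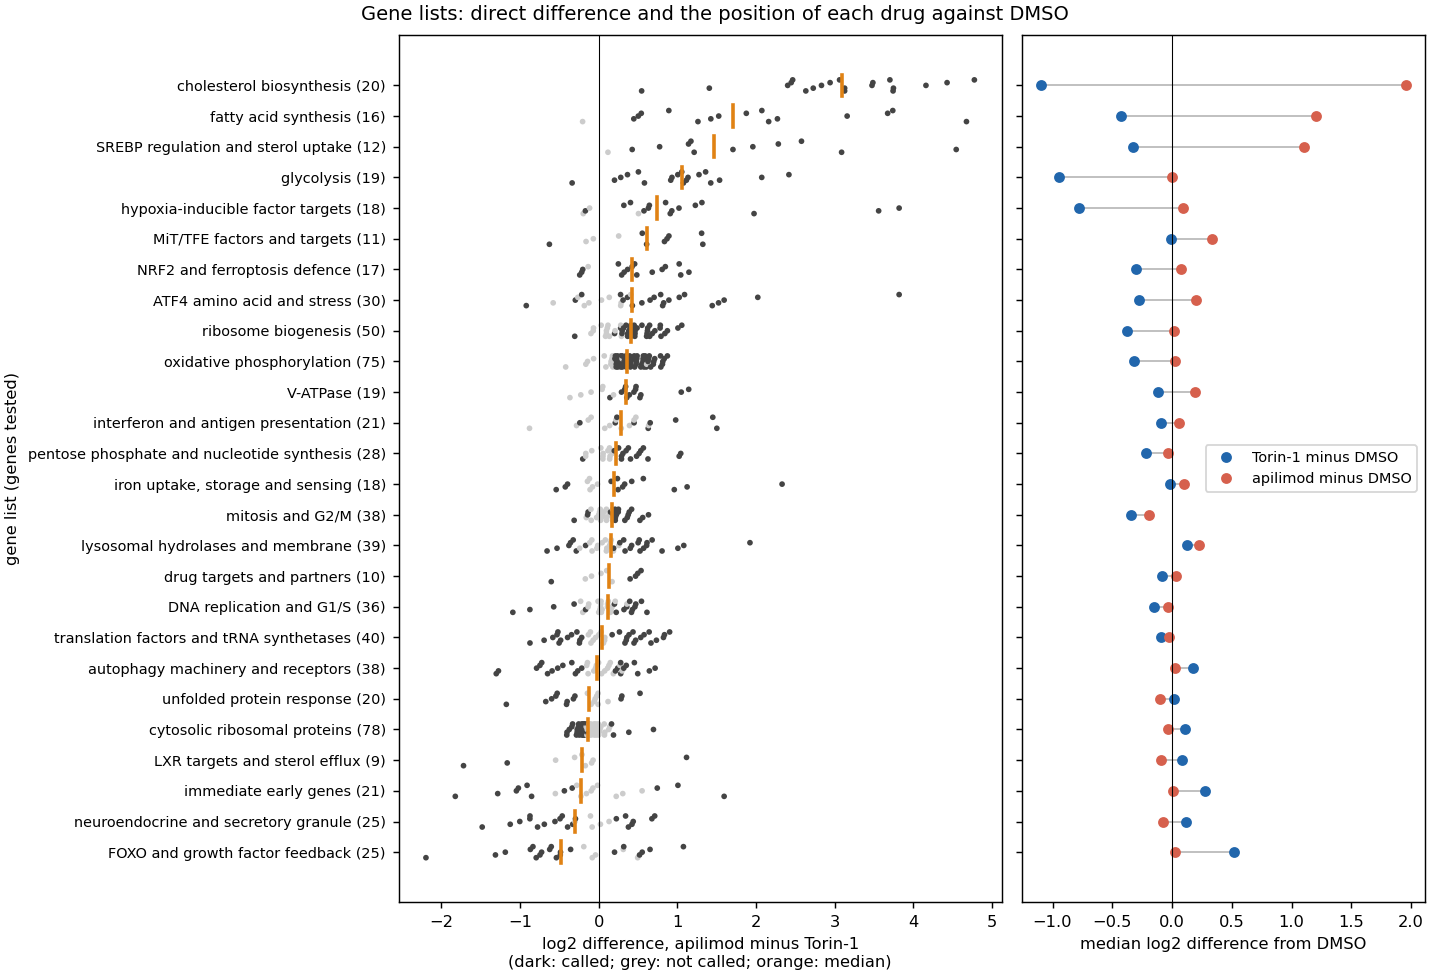
Left, log2 difference between apilimod and Torin-1 for the genes of 26 lists, each point a gene (dark where called, grey where not), with the list median in orange and the number of genes tested in brackets. Right, the median log2 difference of each list from DMSO under Torin-1 (blue) and apilimod (red), which share the DMSO samples. Cholesterol synthesis has the widest gap, with medians of -1.10 and 1.96, and glycolysis lies at 0.00 under apilimod and -0.95 under Torin-1.

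Glycolysis was lowered by Torin-1 and stayed near DMSO under apilimod. Of 19 genes, 18 were higher under apilimod than under Torin-1 (94.7%, against 25.1% of all genes tested) and PFKFB3 was lower (-0.34). The median difference was 1.06. The list summed to 6918 and 6952 CPM under Torin-1, 11286 and 11444 CPM under DMSO, and 11559 and 11250.1 CPM under apilimod. Torin-1 lowered 16 of the 19 against DMSO and apilimod raised 5 and lowered 1. LDHA, which encodes lactate dehydrogenase A, was at 383 and 409 CPM under Torin-1, 1174 and 1219 CPM under DMSO, and 1041 and 1086 CPM under apilimod (difference 1.42, adjusted p = 5.64e-12). Its apilimod samples lay slightly below DMSO (-0.17). HK2, the inducible hexokinase, differed by 1.28. The genes with the highest differences were raised by apilimod too: PFKFB4, which sets the level of an activator of phosphofructokinase, was at 6.99 and 7.24 CPM under Torin-1, 18.8 and 18.6 CPM under DMSO, and 42.0 and 42.7 CPM under apilimod (difference 2.42). ALDOC, the aldolase of brain, and SLC2A3, the glucose carrier GLUT3, differed by 2.07 and 1.54.

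Targets of the hypoxia-inducible factors moved much as glycolysis did. Of 18, 14 were higher under apilimod (77.8%, against 25.1% of all genes tested) and 1, EPAS1, was lower (-0.17), with a median of 0.75. DDIT4, which encodes the mTORC1 inhibitor REDD1, was at 4.38 and 5.86 CPM under Torin-1, 38.6 and 42.0 CPM under DMSO, and 83.9 and 85.5 CPM under apilimod (difference 3.82, SE 0.132, adjusted p = 2.67e-12). BHLHE40, a repressor induced by hypoxia, was at 10.1 and 9.14 CPM under Torin-1, 52.3 and 54.2 CPM under DMSO, and 129 and 118 CPM under apilimod (difference 3.56). In both genes DMSO lay between the drugs. EGLN3, a prolyl hydroxylase that marks HIF for breakdown, was at 2.89 and 3.02 CPM under Torin-1, 13.0 and 11.6 CPM under DMSO, and 14.9 and 14.1 CPM under apilimod (difference 1.97), so it was Torin-1 that stood apart.

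Iron uptake and redox genes were higher under apilimod. TFRC, the transferrin receptor, was at 67.2 and 69.7 CPM under Torin-1, 224 and 220 CPM under DMSO, and 333 and 364 CPM under apilimod (difference 2.33, SE 0.068, adjusted p = 3.47e-13). STEAP3, the reductase that prepares iron for export from the endosome, differed by 1.12 and ACO1, which encodes the iron sensor IRP1, by 0.96. Storage changed less: FTH1, the ferritin heavy chain, differed by 0.33, and FTL, the light chain, by 0.16 (adjusted p = 0.0299), a call that was lost under 7 of the alternatives. Of the 18 iron genes 10 were higher under apilimod (55.6%, against 25.1% of all genes tested) and 3 lower (16.7%, against 19.6%). Their median was 0.20, and NCOA4, the receptor for ferritin breakdown, was not called (-0.14). Of 17 genes of NRF2 and ferroptosis defence, 13 were higher (76.5%) and 3 lower (17.6%), with a median of 0.42. PRDX1, a peroxiredoxin, was at 178 and 190 CPM under Torin-1 and at 392 and 426 CPM under apilimod, with DMSO at 435 and 428 CPM (difference 1.15). PGD, an NADPH-producing enzyme, differed by 1.04, and it also led the 28 genes of the pentose phosphate path and nucleotide synthesis. Of these, 15 were higher (53.6%) and RRM2 was lower (-0.20). NFE2L2, which encodes NRF2 itself, was lower under apilimod (-0.20), as were GCLC (-0.24) and SLC7A11 (-0.22).

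Amino acid and stress genes of the ATF4 group were mostly higher under apilimod. Of 30, 18 were higher (60%, against 25.1% of all genes tested) and 3 lower (10%, against 19.6%), with a median of 0.42. STC2, a secreted glycoprotein induced by stress, was at 12 and 11.2 CPM under Torin-1, 24.1 and 27.6 CPM under DMSO, and 52.2 and 48.3 CPM under apilimod (difference 2.02). SLC7A5, the carrier of large neutral amino acids, was at 115 and 103 CPM under Torin-1, 260 and 240 CPM under DMSO, and 328 and 303 CPM under apilimod (difference 1.52, adjusted p = 1.45e-10). The serine synthesis enzymes PSAT1 and PHGDH differed by 1.09 and 1.02, and were lowered by Torin-1 and not called against DMSO under apilimod. TRIB3, a pseudokinase induced by stress, had the reverse pattern, at 22.3 and 18.9 CPM under Torin-1, 21.2 and 19.0 CPM under DMSO, and 55.3 and 59.8 CPM under apilimod (difference 1.44). ATF4 itself was above DMSO under both drugs and was not called between them (-0.12, adjusted p = 0.0893). SLC38A2, a carrier of small neutral amino acids, was lower under apilimod (-0.92).

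**Figure D4:**
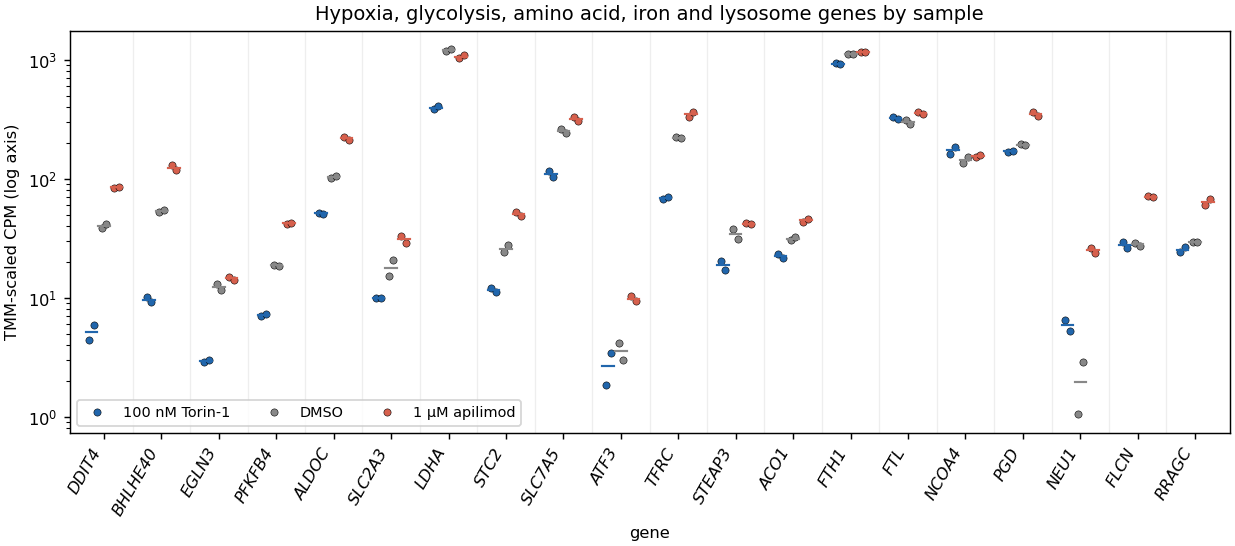
Scaled CPM of 20 genes of hypoxia, glycolysis, amino acid use, iron, redox and the lysosome (log axis) in each of the 6 samples, with a short line at the mean of 2 replicates for Torin-1 (blue), DMSO (grey) and apilimod (red). LDHA and EGLN3 are low under Torin-1 alone, FLCN and RRAGC are high under apilimod alone, and TFRC has DMSO at 224 and 220 CPM between the drugs.

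At the other end, no single list as written led the genes higher under Torin-1. FBXO32 and BMF, given below, were not members of the FOXO list. FST, which encodes follistatin, a binder of activins, was at 831 and 898 CPM under Torin-1, 189 and 187 CPM under DMSO, and 161 and 162 CPM under apilimod (difference -2.41, SE 0.056, adjusted p = 1.55e-14). TXNIP, which binds thioredoxin and restrains glucose uptake, was at 1435 and 1494 CPM under Torin-1, 675 and 678 CPM under DMSO, and 317 and 321 CPM under apilimod (difference -2.19, SE 0.048, adjusted p = 7.69e-15), a 4.59-fold higher mean under Torin-1. Both genes were moved in opposite directions by the drugs. Against DMSO, FST differed by 2.19 under Torin-1 and -0.22 under apilimod, and TXNIP by 1.11 and -1.08. FBXO32, the ubiquitin ligase atrogin-1, was at 42.0 and 39.6 CPM under Torin-1 and between 6.79 and 9.63 CPM in the other 4 samples (difference -2.29). BMF, a pro-apoptotic BH3-only protein, was at 48.2 and 45.5 CPM under Torin-1 and at 12.8 and 11.3 CPM under apilimod (difference -1.87). MN1, a transcriptional coregulator, had the lowest difference at -2.52, with 36.5 and 28.8 CPM under Torin-1 and 5.43 and 4.31 CPM under apilimod, apart from AC009412.1.

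Of the other genes at this end, ABTB1, ADAMTS9 (a secreted metalloprotease) and FOXC1 (a transcription factor) differed by -2.29, -2.09 and -1.93, with DMSO between the drugs. The lowest value of all, -4.04 for AC009412.1, and the high value of FAM220A belong to 2 entries at the same locus, at 15.8 and 16.5 CPM and at 0.40 and 0.39 CPM under Torin-1, and their sum differed by a log2 ratio of only 0.21, so neither is read as a change of the gene. VPS52, a subunit of a vesicle-tethering complex, differed by -2.39 but lies in the MHC region and had DMSO samples at 8.47 and 17.1 CPM. WNT3 differed by -2.15 with apilimod samples at 9.54 and 0.00945 CPM, and without Apilimod replicate 2 the difference was -0.45 and no longer called.

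Genes of the FOXO and growth factor feedback list were mostly higher under Torin-1. Of 25 genes, 14 were lower (56%, against 19.6% of all genes tested) and 6 higher under apilimod (24%, against 25.1%). The median was -0.48, and Torin-1 raised 16 of the 25 against DMSO and apilimod 5. FOXO1 was at 17.6 and 19.6 CPM under Torin-1, 8.15 and 8.79 CPM under DMSO, and 6.60 and 7.18 CPM under apilimod (difference -1.31). IRS2, the adaptor of the insulin receptor, was at 148 and 162 CPM under Torin-1, 75.7 and 75.8 CPM under DMSO, and 64.2 and 71.2 CPM under apilimod (difference -1.19, adjusted p = 1.13e-08). The receptors ERBB2, IGF1R, EGFR and INSR differed by -0.87, -0.75, -0.62 and -0.49, and the cell cycle inhibitor CDKN1B by -0.83. PDK4 and CCNG2 were raised by both drugs and further by Torin-1, with differences of -0.79 and -0.48. Against this direction, SESN3, a sestrin, was higher under apilimod (1.08). The FOXO motif was found in 3 of the 22 genes of the list with a promoter window, TXNIP among them, against 3.58% of tested genes with one. The motif was added after the values were seen, so nothing is read from this count.

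Several immediate early genes were lower under apilimod too. EGR1, an immediate early transcription factor, was at 32.8 and 31.3 CPM under Torin-1, 18.0 and 16.3 CPM under DMSO, and 9.12 and 7.63 CPM under apilimod (difference -1.82, adjusted p = 3.47e-08). DUSP6, a phosphatase of ERK, was at 253 and 263 CPM under Torin-1, 167 and 165 CPM under DMSO, and 105 and 106 CPM under apilimod (difference -1.28). In both, DMSO lay between the drugs. FOS and DUSP1 differed by -1.05 and -1.02. Of 21 immediate early genes, 8 were lower under apilimod (38.1%, against 19.6% of all genes tested). The 3 that were higher (14.3%, against 25.1%) were ATF3 (1.59), JUND (1.01) and JUN (0.74), and the median of the list was -0.23.

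**Figure D5:**
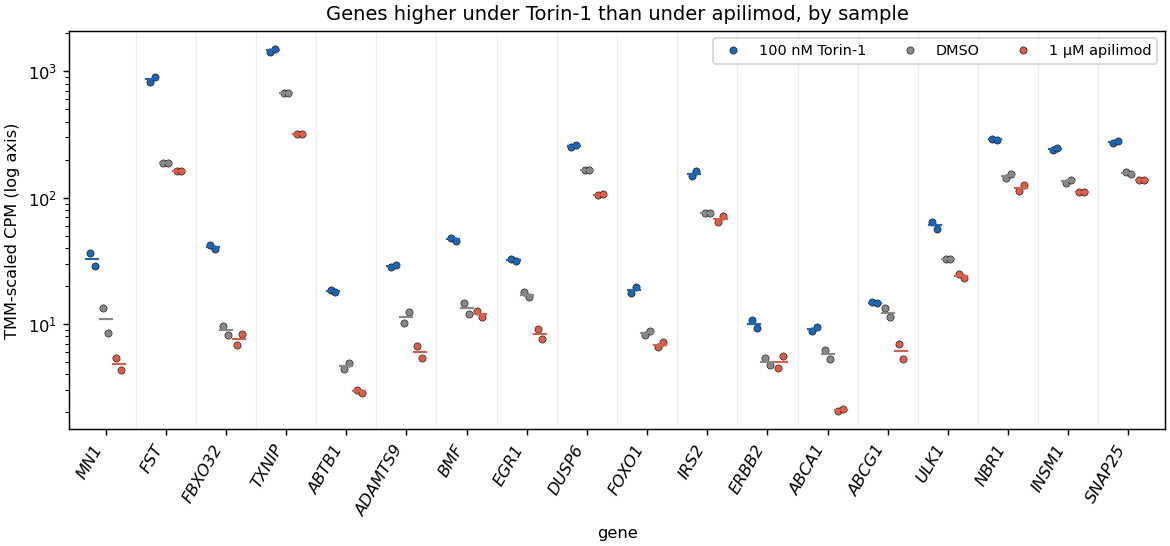
Scaled CPM of 18 genes higher under Torin-1 than under apilimod (log axis) in each of the 6 samples, with a short line at the mean of 2 replicates for Torin-1 (blue), DMSO (grey) and apilimod (red). FST, FBXO32, BMF and ERBB2 are raised by Torin-1 with apilimod near DMSO, in FST slightly below it. DMSO also lies between the drugs in TXNIP, EGR1, DUSP6 and ABCA1.

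Ribosome biogenesis genes were lowered by Torin-1 and lay near DMSO under apilimod. Of 50 ribosome biogenesis genes, 36 were higher under apilimod (72%, against 25.1% of all genes tested) and 1, UBTF, was lower (median 0.41). Torin-1 lowered 37 of the 50 against DMSO while apilimod raised 1, NCL. NOP2, a methyltransferase of ribosomal RNA, was at 52.7 and 45.8 CPM under Torin-1, 108 and 88.9 CPM under DMSO, and 102 and 104 CPM under apilimod (difference 1.06). Genes of the ribosome itself went the other way by small amounts. Of 78 cytosolic ribosomal protein genes, 37 were lower under apilimod (47.4%, against 19.6% of all genes tested) and 4 higher (5.13%, against 25.1%). The median was -0.14, with RPL4 and RPL3 at -0.41 and -0.40 and RPS26 at 0.70. Without Apilimod replicate 1 the 37 became 23, and without the variance trend 6. Several ribosomal protein genes have many processed copies, so their values are uncertain.

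Translation factors and tRNA synthetases moved in both directions. Of 40, 17 were higher (42.5%, against 25.1% of all genes tested) and 13 lower (32.5%, against 19.6%). The median was 0.05 as scaled by the authors and fell to -0.03 and -0.01 under quantile normalization and median centring. EIF4B, an initiation factor, was at 894 and 934 CPM under Torin-1 and at 495 and 502 CPM under apilimod, with DMSO at 521 and 511 CPM (difference -0.87), and EEF2, the elongation factor of translocation, differed by -0.69. EIF5A, an elongation factor, and YARS, a tRNA synthetase, were higher under apilimod (0.84 and 0.90). Oxidative phosphorylation was higher under apilimod in 60 of 75 genes (80%, against 25.1%), with 15 not called and a median of 0.36. Torin-1 lowered 59 of the 75 against DMSO, and the median under apilimod was 0.03. ATP5MC1, a subunit of the ATP synthase, was at 15.7 and 19.4 CPM under Torin-1, 32.5 and 29.2 CPM under DMSO, and 32.4 and 33.3 CPM under apilimod (difference 0.87).

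Of 38 mitotic genes, Torin-1 lowered 30 and apilimod 15 against DMSO, and over all genes tested the shares lowered were 21.8% and 2.79%. In 30 the DMSO samples lay above both drugs, as in 9.14% of all genes tested. Median differences from DMSO were -0.19 under apilimod and -0.35 under Torin-1. Between the drugs, 17 of the 38 were higher under apilimod (44.7%, against 25.1% of all genes tested). A further 3 were lower (7.89%, against 19.6%), and the median was 0.16. CDC20, an activator of the anaphase-promoting complex, was at 114 and 110 CPM under Torin-1, 180 and 168 CPM under apilimod, and 209 and 212 CPM under DMSO (difference 0.63). CCNB1, which encodes cyclin B1, differed by 0.56 and AURKA, a mitotic kinase, by 0.52. The count of 17 was 11 without Torin1 replicate 1 and between 8 and 11 without the variance trend, without the filter on low values and under the other scalings. Among 36 replication genes 11 were higher (7 without the filter on low values, 17 with a replicate block) and 5 lower (median 0.11). These are 30.6% and 13.9%, near the 25.1% and 19.6% of all genes tested, so no direction of the list is read from them. CDT1, which licenses origins, was at 120 and 111 CPM under Torin-1, 46.4 and 41.7 CPM under DMSO, and 57.7 and 49.96 CPM under apilimod (difference -1.09), and PRIM1, a primase subunit, differed by -0.87, while RFC2, a clamp loader subunit, was higher under apilimod (0.61). All values are shares of a library's total, so a change in the RNA content of the cell is not visible, and fewer cells in a phase and less RNA per cell cannot be told apart in bulk samples.

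Secretory genes of the neuroendocrine cell were mostly higher under Torin-1. Of 25 tested, 13 were lower (52%, against 19.6% of all genes tested) and 7 higher under apilimod (28%, against 25.1%). The median of the list was -0.30. INSM1, a transcription factor that marks neuroendocrine cells, was at 237 and 249 CPM under Torin-1, 131 and 139 CPM under DMSO, and 110 and 111 CPM under apilimod (difference -1.12, adjusted p = 1.67e-09). SNAP25, a protein of vesicle fusion, and SLC18A1, the vesicular monoamine carrier of endocrine cells, differed by -1.002 and -1.480. PCSK1, a prohormone convertase, was at 1327 and 1404 CPM under Torin-1, 861 and 895 CPM under DMSO, and 730 and 760 CPM under apilimod (difference -0.87). Those higher under apilimod included STMN2 (0.71), ISL1 (0.68), ENO2 (0.44), DDC (0.42), SYP (0.34) and NCAM1 (0.22), and CHGA was not called (-0.10, 95% interval -0.23 to 0.02). Of 20 genes of the unfolded protein response, which serves the secretory path, 9 were lower under apilimod (45%, against 19.6%). The 3 that were higher made up 15%, against 25.1%, and the median was -0.12. DNAJB9, a chaperone of the endoplasmic reticulum, was at 122 and 138 CPM under Torin-1 and at 52.8 and 61.5 CPM under apilimod, with DMSO at 57.1 and 55.7 CPM (difference -1.17), and HERPUD1 and ATF6 differed by -0.67 and -0.60.

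The drug targets themselves differed little at the RNA level. PIKFYVE was at 77.6 and 76.6 CPM under Torin-1, 72.0 and 69.9 CPM under DMSO, and 83.7 and 81.9 CPM under apilimod (difference 0.10, 95% interval -0.06 to 0.26, adjusted p = 0.293). MTOR was at 103 and 88.1 CPM under Torin-1 and at 112 and 103 CPM under apilimod (difference 0.17, 95% interval -0.01 to 0.35, adjusted p = 0.113). Of 10 genes of the targets and their partners, 4 were higher (40%, against 25.1% of all genes tested), among them AKT1S1 (0.54) and VAC14 (0.50). RICTOR, which defines the mTORC2 complex, was lower under apilimod (-0.60), at 90.3 and 102 CPM against 134 and 159 CPM under Torin-1. All 5 of these calls were lost without the filter on low values.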

How the data were processed

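Trimmomatic was used by the authors to trim reads, transcript estimates were added up per gene and scaled with TMM factors from edgeR, and DESeq2 served for their own tests. The aligner or quantifier is not given in the sources used here, and the labels name hg38. The deposited values, a scaled signal close to CPM, sum per sample to 972493 to 1024332. The design had assumed CPM, and the same log-scale test was used. Between 77.2% and 78.6% of low values were whole reads within 0.1, so no count model was fitted. Depth was estimated from the spacing of low values, and read limits cover counting error only.

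Genes averaging 1 CPM or more over the 6 samples entered limma 3.58.1 (R 4.3.3, eBayes with a variance trend) as log2(CPM + 1) of the 4 drug samples, with Benjamini-Hochberg adjustment and a threshold of 0.05. DMSO contrasts used all 6 samples. The comparison, members and lists were chosen with earlier results of these data known, so list counts are descriptions. Named genes were the 12 highest and 12 lowest differences among called genes with no overlap and at least 10 CPM in both samples of the higher group, up to 3 called genes per list, and a few fixed drug target, sterol and iron genes. Other genes were named as list members after their values were seen. Of 35606 gene IDs, 35547 were in GENCODE release 29 (GRCh38). Promoter windows were matched by symbol for 10480 of the 13520 genes. Replicate numbers had a correlation of 0.10 between drugs over 2 pairs and were not treated as pairs. Alternatives were another pseudocount, filter, scaling, sample set, variance trend, cutoff, a replicate block and each sample left out. A few list members are not reported here by name. The procedure was tested on simulated data. Figures used matplotlib 3.10.9 in Python 3.11.15.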

Additional observations from a re-analysis of the deposited data

How the results depend on the processing

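None of the 100 genes chosen by the naming rule reversed its direction under the alternatives that were run. Changing the filter or the variance trend, fitting all 6 samples or adding a replicate block leaves a difference unchanged and could not reverse it. Most of the 100 were also chosen for large differences in these same samples, so nothing is read from the absence of reversals. Other genes named as list members were not followed gene by gene. Of the 6037 calls, 5975 kept their call and sign with all 6 samples in the fit, 5989 with a pseudocount of 0.1, 5260 with quantile normalization, 5542 with median centring and 4383 without the variance trend. The replicate numbers share only a number, with a correlation of 0.10 over 2 pairs. A replicate block kept all 6037 and called 7253 genes, and moved the replication genes higher under apilimod from 11 to 17. The share of calls higher under apilimod was 56.2%, and 47.6% with median centring and 48.0% with quantile normalization.
Without the filter on low values 2969 genes were called (1745 higher, 1224 lower). In the main fit, with the filter kept, 177 called genes lay past the cutoff of 1.5 (123 and 54). The filter's removal also left 4 MiT/TFE, 9 lysosomal, 8 V-ATPase, 7 replication, 9 mitotic and 4 interferon genes called higher, 14 ribosomal protein genes called lower, and 0 of the 10 drug target genes called higher by limma, 5 of the 10 being higher at an unadjusted p under 0.05. Without the variance trend 466 genes were called between apilimod and DMSO. Between apilimod and Torin-1 the same setting left 6 ribosomal protein genes lower and 8 mitotic genes higher under apilimod. Quantile normalization gave 60 and 10 of these, and median centring 11 mitotic genes. With a minimum of 10 CPM, 1 LXR gene was lower. The causes were not tested.
With each sample left out in turn, a group of 1 being assumed to vary like the other, calls ranged from 5073 to 5556, mitotic genes higher from 11 to 16 and ribosomal protein genes lower from 23 to 42. The median standard error was 0.28 for genes at 1 to 3 CPM and 0.067 above 100 CPM, so small differences of low genes are not resolved.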

Other observations

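Interferon and antigen presentation genes were low. Of 21, 8 were higher under apilimod (38.1%, against 25.1% of all genes tested), or 4 without the filter on low values. STAT2 was the 1 lower gene (4.76%, against 19.6%), and the median difference was 0.29. NLRC5, a transactivator of MHC class I genes, was at 0.75 and 0.86 CPM under Torin-1, 0.91 and 0.66 CPM under DMSO, and 3.10 and 4.91 CPM under apilimod (difference 1.45, adjusted p = 4.22e-04, limma with Benjamini-Hochberg adjustment). IFIT3, an interferon-induced antiviral protein, was at 2.43 and 2.76 CPM under Torin-1, 4.45 and 4.98 CPM under DMSO, and 9.03 and 9.30 CPM under apilimod (difference 1.502). TAP2, a subunit of the peptide transporter for MHC class I, differed by 0.98, but lies in the MHC region and was lowered by Torin-1 with apilimod near DMSO. NLRC5 thus stood apart under apilimod, and IFIT3 had DMSO between the drugs.

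Among 6 histone genes, whose main transcripts carry no poly(A) tail, 3 were lower under apilimod (50%, against 19.6% of all genes tested). HIST1H2AC was at 25.2 and 26.0 CPM under Torin-1, 13.2 and 15.1 CPM under DMSO, and 13.0 and 13.2 CPM under apilimod (difference -0.91). The list summed to 93.4 and 89.3 CPM under Torin-1 and to 51.8 to 59.6 CPM in the other 4 samples.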
